A study of Homo sapiens with 6 samples.

Results

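EGR1 and JUND, a pair of genes of the immediate early class, were lower in mean expression in Rh30 cells expressing PANX1 than in GFP control cells, in a table in which most genes were higher. They were found by looking up 13 immediate early gene symbols of the EGR, FOS, JUN and IER families in the deposited table. Of the 13, only EGR1 and JUND were among its 1273 genes. The other 11 (EGR2, EGR3, FOS, FOSB, FOSL1, FOSL2, JUN, JUNB, IER2, IER3 and IER5) were not analysed here. Rh30 is an established human cell line from an alveolar rhabdomyosarcoma, a tumor that expresses genes of developing skeletal muscle. The RNA-seq libraries came from stable Rh30 cells, 3 from cells carrying an inducible PANX1 construct and 3 from cells carrying the GFP control vector. PANX1 forms channels in the plasma membrane, and the cumate switch keeps the inserted gene silent until cumate is added. All 6 cultures received 30 µg/mL cumate for 48 h. The study describes cells of this vector system as expressing GFP constitutively, so that GFP is shared by both groups. The study calls the libraries of a group biological replicates. Whether each stable line was a single clone is not given in the sources used here, so p-values measure the spread between cultures of 1 line per group. Values are FPKM, the sequenced fragments per kilobase of transcript, with the scaling between libraries taken as deposited.

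Immediate early genes are transcribed within minutes of a stimulus, without new protein synthesis. Growth factors and stress reach many of them through the RAS, RAF and MAP kinase cascade, whose last kinase, ERK, phosphorylates ternary complex factors such as ELK4 that sit with serum response factor on a sequence called the CArG box. EGR1 is a zinc finger transcription factor that binds GC-rich sites and induces its own corepressor, NAB2. JUND is a subunit of AP-1, the dimeric factor of JUN with JUN, FOS or ATF proteins. JUND is expressed more constantly in resting cells than JUN or JUNB, and its messenger RNA is made from a gene without introns.

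The upstream sequences are shown because the windows of the pair differ in elements that are thought to drive immediate early transcription. They are the 250 bases before the RefSeq transcription start (taken from GRCh38.p14), 5′ to 3′ on the gene's strand, and each occurs once, unchanged, on its hg19 chromosome, at chr5:137800918-137801167 (plus strand) for EGR1 and at chr19:18392433-18392682 (minus strand) for JUND. Capitals mark CArG boxes and CRE cores (TGACG, on either strand) in EGR1, and the full CRE (TGACGTCA), CRE cores and the octamer ATGCAAAT in JUND.
EGR1: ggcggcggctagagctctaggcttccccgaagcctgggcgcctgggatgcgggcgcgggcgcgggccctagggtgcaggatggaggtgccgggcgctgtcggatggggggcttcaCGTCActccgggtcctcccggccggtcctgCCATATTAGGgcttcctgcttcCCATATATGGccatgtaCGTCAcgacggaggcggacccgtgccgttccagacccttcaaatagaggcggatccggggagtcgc
JUND: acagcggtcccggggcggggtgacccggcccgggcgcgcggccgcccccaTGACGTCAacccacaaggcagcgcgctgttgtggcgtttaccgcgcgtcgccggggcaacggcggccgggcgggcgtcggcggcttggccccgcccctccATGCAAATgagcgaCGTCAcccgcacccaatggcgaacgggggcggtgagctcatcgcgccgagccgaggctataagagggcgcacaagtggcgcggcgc

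The EGR1 window held 2 CArG boxes, CCATATTAGG at positions -105 to -96 and CCATATATGG at -83 to -74 from the start. The JUND window held none. Of 35116 RefSeq windows of the same length, 1.16% held a CArG box and 0.0313% held 2 or more. Both windows had CRE cores, which 21.2% of windows hold. There were 2 in EGR1 and 3 in JUND, where a pair of the JUND matches are the overlapping strands of its full CRE at -200 to -193. A full CRE stood in 1.65% of all windows and the octamer in 1.63%. The EGR1 window also held 1 match to GCGNGGGCG, the site of EGR proteins themselves, which 8.41% of windows have. JUND had 5 matches to GGGCGG, the Sp1 box, found at least once in 42.6% of windows, and EGR1 had none. The AP-1 site TGANTCA was in neither window and in 6.57% of all. All motifs were searched on both strands. A match is a run of letters, and binding was not measured in these data.

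The deposited table holds genes that the authors' own test called changed between these same libraries, so every gene in it was selected for a difference and no test here is a second, independent one. Of the 1273 genes, 87.0% had a higher and 13.0% a lower mean FPKM in PANX1 cells. PANX1 itself was higher in the 3 PANX1 libraries than in the 3 GFP libraries, with mean FPKM of 144 ± 35.2 and 33.7 ± 5.02 (SD, n = 3). PANX1 replicate 3 stood apart from the others. Over all genes of the table, its median log2 ratio to the GFP mean was 1.87, against 0.77 in PANX1 replicate 1 and 0.61 in PANX1 replicate 2. Each gene was tested with limma on log2(FPKM + 1), a scale on which changes of low genes are understated. A gene is said to be called where its p, adjusted over the whole table by the Benjamini-Hochberg method, is below 0.05. Of 18 markers of the muscle lineage and of alveolar rhabdomyosarcoma, 5 were in the table, and these moved with the groups. DES, CDH15, TNNT1 and TNNI1 had 20.0 FPKM or more in every library. They were higher in PANX1 cells without overlap, as was 82.0% of the table. Limma called CDH15 and TNNT1 higher, as it did 33.5% of the table. MYH8, the perinatal myosin heavy chain gene, was below 1 FPKM in every library and was called lower, as EGR1 was (limma adjusted p = 0.0354 for MYH8). The noncoding gene MYHAS overlaps 31626 bases of the MYH8 locus, so the value of MYH8 is uncertain. The part of the muscle markers in the results on EGR1 and JUND was not tested. MYOD1 and MYOG, which define myogenic cells, were not analysed here.

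EGR1 fell to a mean of 26.7 ± 12.3 FPKM (SD, n = 3) in PANX1 cells from 55.1 ± 24.4 (SD, n = 3) in GFP cells, 2.06-fold lower. The gene is listed as XLOC_017345 at chr5:137801181-137805004 on hg19, which reaches over both annotated exons and the intron between them, and no other annotated gene overlaps that locus. EGR1 had 35.0, 82.3 and 48.0 FPKM in GFP replicates 1, 2 and 3. In PANX1 replicates 1, 2 and 3 it had 40.9, 19.5 and 19.7 FPKM. PANX1 replicates 2 and 3 were below every GFP library, whereas PANX1 replicate 1 lay above GFP replicate 1, so that the groups overlapped. The limma change of EGR1 was -1.02 on the log2 scale (standard error 0.4, 95% confidence interval -1.80 to -0.23, adjusted p = 0.0398 with Benjamini-Hochberg adjustment). Of the table's genes, 0.707% were called lower, that is 9 genes with EGR1 among them, against 33.5% called higher. The log2 ratio of means was below -1, as for EGR1, in 3.22% of the genes. Without adjustment limma's p was 0.0111 for EGR1 and 0.0367 for JUND, where 3.38% of the table was lower and 58.4% higher at an unadjusted p below 0.05. The exact two-sided permutation test gave p = 0.2 for EGR1, where 0.1 is the smallest p that 3 libraries against 3 allow.

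**Figure D1:**
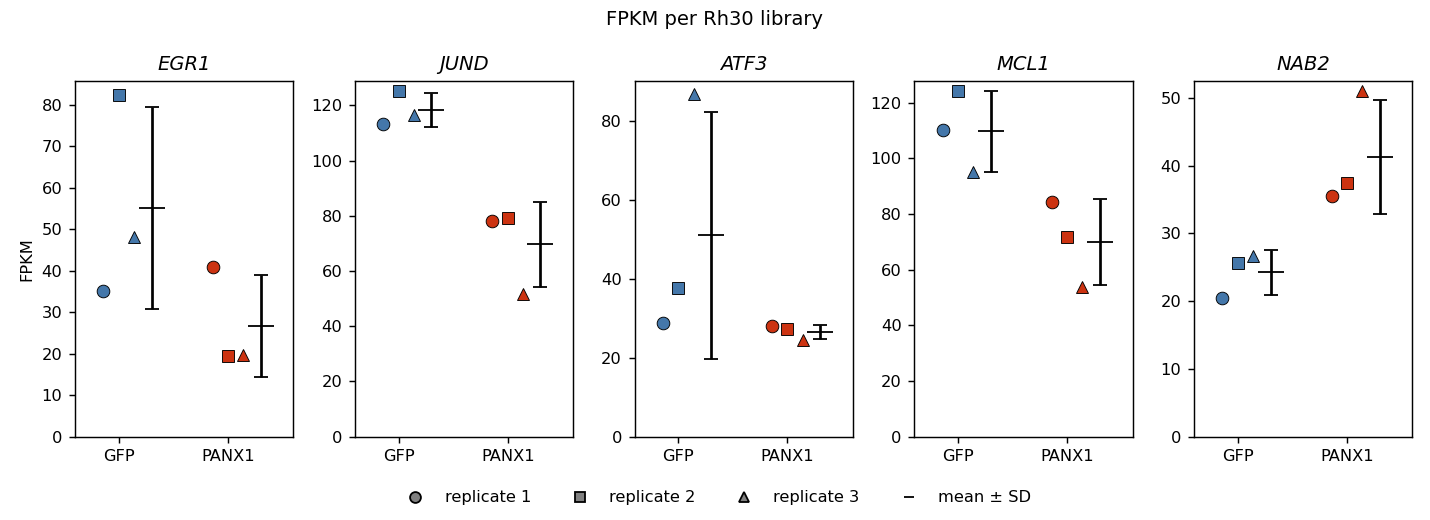
FPKM (vertical axes, linear from 0) of EGR1, JUND, ATF3, MCL1 and NAB2 in the 3 GFP and 3 PANX1 libraries of Rh30 cells, with the mean and SD of each group beside the points. EGR1 overlaps between the groups because PANX1 replicate 1, at 40.9, lies above GFP replicate 1, at 35.0, while JUND has every PANX1 library at 79.2 or below and every GFP library at 113 or above.

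The size of the EGR1 difference depended most on GFP replicate 2 and PANX1 replicate 1, the highest library of each group. Without GFP replicate 2 the log2 ratio of the group means moved from -1.04 to -0.64, and limma's adjusted p was 0.251. Without PANX1 replicate 1 the log2 ratio of the group means moved to -1.49. EGR1 was also not called without GFP replicate 1 (adjusted p = 0.189), without GFP replicate 3 (0.139) or without PANX1 replicate 2 (0.0769) in the same limma test. Its limma change was -1.29, -1.07 and -0.84 in these 3 fits. Few genes were called lower in any fit without a GFP library, with 0.0786%, 0.00% and 0.00% of the table without GFP replicates 1, 2 and 3. Without PANX1 replicate 2 the share was 1.81%. EGR1 remained called without PANX1 replicate 1 (0.0328) and without PANX1 replicate 3 (0.0284), where 0.236% and 11.5% of the table were called lower. The log2 ratio to the GFP mean was -0.43, -1.50 and -1.48 in PANX1 replicates 1, 2 and 3. PANX1 replicate 3, which stands apart over the table, was thus at the level of replicate 2 for EGR1 in the deposited FPKM. That depended on the scaling. With the median-of-ratios scaling used below, EGR1 was at 35.1, 18.8 and 7.81 in PANX1 replicates 1, 2 and 3.

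EGR1 varied more between control libraries than nearly all genes of the table at its level. Its coefficient of variation in GFP cells was 44.3%. The comparison was with other genes of the table, all selected by the authors' test on these same libraries. Among the 147 genes with a mean GFP FPKM within 2-fold of that of EGR1, the median coefficient was 10.5%, and 2 genes had a larger one. Those 2 were ATF3 and DDIT4, both stress-responsive genes. In PANX1 cells the coefficient was 46.1% for EGR1 and 50.8% in the median of 411 genes at its level there, of which 240 had a larger one.

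JUND had a lower mean in PANX1 cells, 69.7 ± 15.5 FPKM (SD, n = 3), than in GFP cells, 118 ± 6.2 (SD, n = 3), 1.70-fold lower. It is listed as XLOC_011533 at chr19:18390563-18392432 on hg19, within the single annotated exon of the gene, and no other annotated gene overlaps it. JUND had 113, 125 and 116 FPKM in GFP replicates 1, 2 and 3. In PANX1 replicates 1, 2 and 3 it had 78.0, 79.2 and 51.8 FPKM. All 3 PANX1 libraries were below all 3 GFP libraries, and PANX1 replicate 3 was the lowest. The libraries were free of overlap in the lower direction in 11.9% of the genes of the table. The limma change of JUND was -0.78 on the log2 scale (standard error 0.373, 95% confidence interval -1.51 to -0.05), which did not pass the threshold after Benjamini-Hochberg adjustment (adjusted p = 0.071). Its exact two-sided permutation p was 0.1, the smallest possible here. The study speaks of matching replicates without saying what they share. With a replicate block by title number JUND was called (limma adjusted p = 0.0377), where 2.59% of the table was called lower. Without PANX1 replicate 3 the log2 ratio of means of JUND went from -0.76 to -0.59. JUND was then called, with an adjusted p of 0.00633 in limma, where 11.5% of the table was called lower and 78.1% higher.

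JUND was among the steadiest of the table's selected genes at its level, unlike EGR1. Its coefficient of variation in GFP cells was 5.24%, and 61 of the 70 genes within 2-fold of its GFP level had a larger one. The highest GFP value was 1.11 times the lowest for JUND and 2.35 times for EGR1. In FPKM, which is per length, JUND was the more abundant of the pair in every library. The EGR1/JUND ratio of FPKM was 0.309, 0.657 and 0.412 in GFP replicates 1, 2 and 3 and 0.525, 0.246 and 0.38 in PANX1 replicates 1, 2 and 3. These ratios overlapped between the groups (mean log2 difference -0.26, exact two-sided permutation p = 0.6), so a difference between EGR1 and JUND in how far they were lower was not detectable with these libraries.

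Both genes stood among the minority of the table that was lower in PANX1 cells. Ordered by the log2 ratio of means from the lowest, EGR1 was at rank 34 and JUND at rank 99 of 1273. In mean FPKM from the highest, EGR1 went from rank 110 in GFP to rank 365 in PANX1 cells, and JUND from rank 61 to rank 149. Since most genes of the table were higher, a gene could lose rank while its mean was higher. NAB2, for example, was higher in PANX1 cells and went from rank 240 to rank 253. The median log2 ratio of the table was 1.23, against -1.04 for EGR1 and -0.76 for JUND. After median-of-ratios scaling, which centres these selected genes and brought the table's median to 0.04, the log2 ratios were -1.94 for EGR1 and -1.65 for JUND. That scaling divided GFP libraries by 0.616 to 0.750 and PANX1 libraries by 1.04 to 2.52, so it moved every gene downward in PANX1 cells. Among the looked-up genes the scaled groups did not overlap in EGR1, JUND, ATF3, MCL1, ELK4 and MAP2K3, all lower. They did not overlap in MAP3K11 and HSPB1 either, both higher. The share of the table without overlap on that scale was not taken, so the separation cannot be called particular to these genes. Limma on that scale gave an adjusted p of 0.12 for both EGR1 and JUND and called 0 genes of the table.

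**Figure D2:**
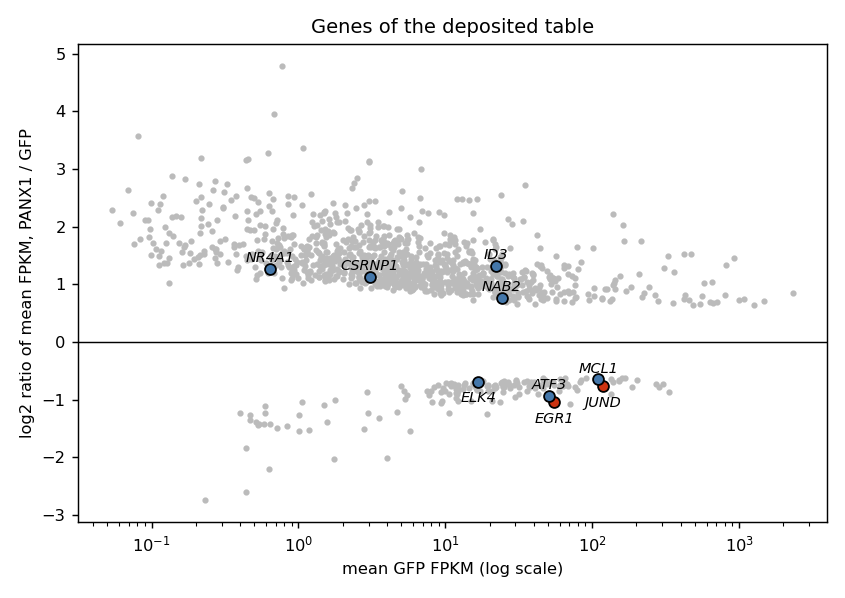
Log2 ratio of mean FPKM, PANX1 over GFP (vertical axis), against the mean GFP FPKM (horizontal axis, log scale) for the genes of the deposited table with a GFP mean above 0. EGR1 and JUND (red) lie in the lower band at -1.04 and -0.76, with ATF3, MCL1 and ELK4 (blue), while NR4A1, CSRNP1, ID3 and NAB2 (blue) lie above 0, of which NAB2 turned lower with median-of-ratios scaling.

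JUND and EGR1 were also unusual among the lower genes in their base composition. The longest coding transcript has a GC content of 69.9% in JUND and 55.3% in EGR1. The 150 lower genes with a GC value had a median of 39.2%, and the 1004 higher genes one of 61.6%. Of the 12 genes with a GC content at least that of JUND, JUND was the only 1 with a lower mean in PANX1 cells. Within 2 percentage points of JUND there were 33 other genes, all with a higher mean and with a median log2 ratio of 1.79. Within 2 points of EGR1 there were 101 other genes, of which 99 had a higher mean and 2, INHBE and BEX2, a lower one. After a correction for each library's slope on GC content, which also removes true differences that follow GC content, the limma change was -2.04 for JUND and -1.39 for EGR1. The adjusted p was 0.0997 for both in that fit, and it called 0 genes of the table lower, against 66 at an unadjusted p below 0.05.

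**Figure D3:**
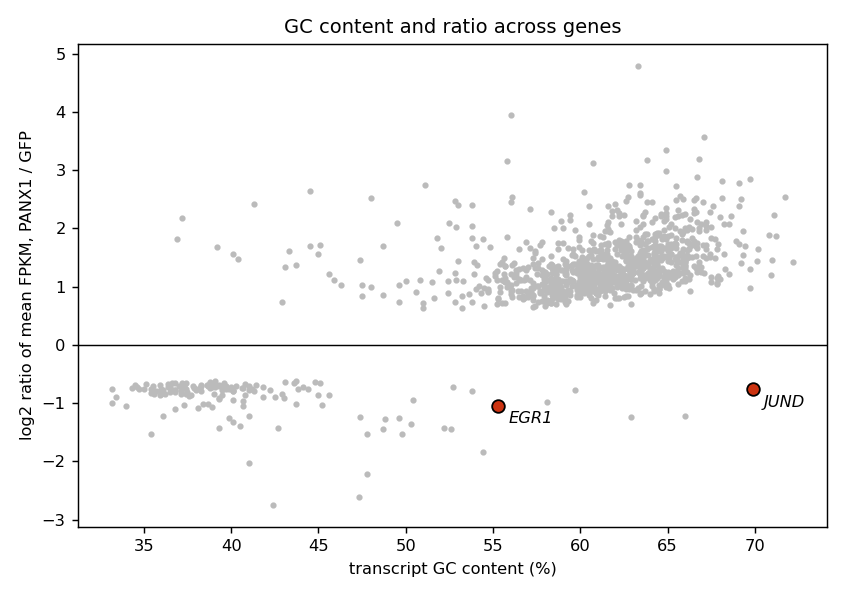
Log2 ratio of mean FPKM, PANX1 over GFP (vertical axis), against transcript GC content in percent (horizontal axis), 1 point per gene of the table with a GC value. Lower genes gather at low GC content with a median of 39.2%, and JUND at 69.9% and EGR1 at 55.3% (red) stand to the right of most of them.

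Of 39 further immediate early genes looked up, 5 were in the table, 2 with a lower and 3 with a higher mean in PANX1 cells. ID3, an inhibitor of basic helix-loop-helix factors, was called higher, and no gene of the 5 was called lower, also at an unadjusted p below 0.05 (0 genes in limma). ATF3, a stress-induced partner of JUN proteins, had 28.8, 37.6 and 86.7 FPKM in GFP replicates 1, 2 and 3. Its PANX1 libraries had 28.0, 27.2 and 24.6 FPKM. All PANX1 values of ATF3 were below its GFP values, but PANX1 replicate 1 was within 1 FPKM of GFP replicate 1, and GFP replicate 3 was far above the other GFP libraries. The limma change of ATF3 was -0.76 (standard error 0.401, adjusted p = 0.0876). MCL1, an anti-apoptotic member of the BCL2 family with a short-lived message, had 110, 124 and 95.1 FPKM in GFP replicates 1, 2 and 3. In PANX1 replicates 1, 2 and 3 it had 84.3, 71.8 and 53.7 FPKM, without overlap. ATF3 and MCL1 were thus lower without overlap, as was 11.9% of the table. For MCL1 limma gave -0.66 on the log2 scale with a standard error of 0.373 and an adjusted p of 0.0991.

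The higher genes of this class were at lower levels than EGR1 in GFP cells. ID3 had 21.1, 26.6 and 18.4 FPKM in GFP replicates 1, 2 and 3. Its PANX1 libraries had 39.6, 25.9 and 99.0 FPKM, so that PANX1 replicate 2 lay below GFP replicate 2 and the groups overlapped. The limma change of ID3 was 1.07 (standard error 0.406, adjusted p = 0.036). NR4A1, an orphan nuclear receptor, had a mean of 0.639 ± 0.206 FPKM in GFP cells and of 1.53 ± 0.499 FPKM in PANX1 cells (SD, n = 3 each), without overlap. An antisense gene, NR4A1AS, overlaps its locus. CSRNP1, a nuclear protein induced by AXIN1, had means of 3.07 ± 0.200 and 6.70 ± 2.00 FPKM (SD, n = 3 each), also without overlap, and antisense noncoding genes overlap it. Of the genes of the table, 82.0% were higher without overlap. Adjusted p was 0.0617 for NR4A1 and 0.101 for CSRNP1 in limma. The 3 higher genes had their highest PANX1 value in replicate 3, as did 1081 of the 1108 higher genes of the table. Without that library the log2 ratio of ID3 went from 1.32 to 0.57, and limma called 3 of the 5 genes higher (ID3, NR4A1 and CSRNP1) and 1 lower (MCL1), where 78.1% of the table was called higher and 11.5% lower. Without PANX1 replicate 2 it called 2 higher, against 56.2% of the table. Without any other single library it called 0, ID3 included.

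**Figure D4:**
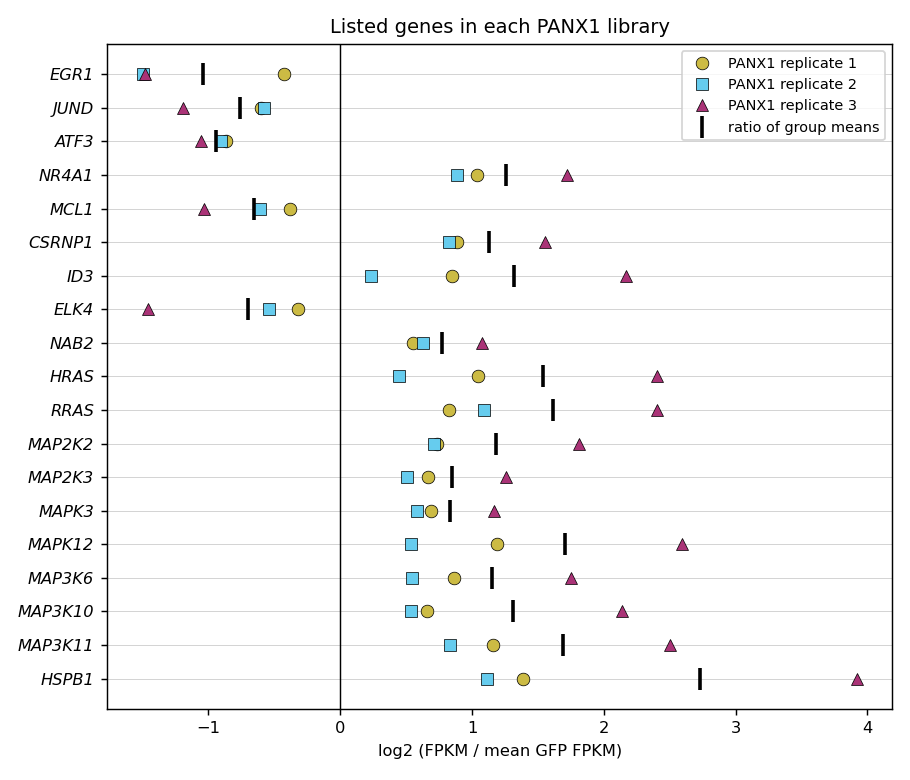
Log2 of the FPKM of each PANX1 library over the mean GFP FPKM (horizontal axis) for the 19 genes of the looked-up lists that are in the table, with the ratio of group means as a bar. EGR1, JUND, ATF3, MCL1 and ELK4 are below 0 in all 3 PANX1 libraries and the other 14 are above 0, but NAB2, MAP2K3, MAPK3 and MAP3K6 turned lower with median-of-ratios scaling, and MAP3K6 and MAP3K10 with the GC correction.

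Of 14 cofactors and regulators of EGR and serum response factor, NAB2 and ELK4 were in the table, and neither was called. NAB2, the corepressor that binds EGR1, had 20.4, 25.6 and 26.7 FPKM in GFP replicates 1, 2 and 3 and 35.5, 37.4 and 51.0 in PANX1 replicates 1, 2 and 3. Its PANX1 libraries were all above its GFP libraries, as in 82.0% of the genes of the table, with a limma change of 0.74 (standard error 0.407, adjusted p = 0.0946). With median-of-ratios scaling its limma change turned to -0.30. The locus given for NAB2 runs 16006 bases into STAT6 on the other strand, so reads of these genes may not have been separated and the value of NAB2 is uncertain. ELK4, a ternary complex factor that recruits MAP kinase signals to CArG boxes, had 19.1, 16.5 and 14.6 FPKM in GFP replicates 1, 2 and 3. Its PANX1 libraries had 13.4, 11.5 and 6.09 FPKM, all below the GFP libraries, as in 11.9% of the genes of the table. The limma change of ELK4 was -0.70 (standard error 0.478, adjusted p = 0.147). Without PANX1 replicate 3 limma called NAB2 higher and ELK4 lower, as it did 78.1% and 11.5% of the table. NAB2 was also the only 1 of 15 textbook EGR1 target genes in the table, and none of 19 other bZIP genes of the AP-1, ATF and MAF families was analysed here.

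Ratios within a library do not depend on how libraries were scaled, and 5 of them were taken, chosen after the values had been seen. The NAB2/EGR1 ratio of FPKM was 0.583, 0.311 and 0.556 in GFP replicates 1, 2 and 3. It was 0.867, 1.92 and 2.59 in PANX1 replicates 1, 2 and 3. NAB2 was thus below EGR1 in all GFP libraries and in PANX1 replicate 1, and above it in PANX1 replicates 2 and 3. The ratio did not overlap between the groups (mean log2 difference 1.81, exact two-sided permutation p = 0.1, the smallest possible, and 0.5 after Benjamini-Hochberg adjustment over the 5 ratios). Of the 1272 other genes of the table, 86.0% had a ratio to EGR1 that was higher in PANX1 cells without overlap, and the median log2 difference was 2.15, so the separation was not particular to NAB2. The MCL1/JUND ratio was 0.973, 0.992 and 0.817 in GFP replicates and 1.08, 0.907 and 1.04 in PANX1 replicates 1, 2 and 3. It overlapped between the groups (mean log2 difference 0.12, exact two-sided permutation p = 0.4), and its 6 values lay between 0.817 and 1.08. ATF3/EGR1 and ELK4/EGR1 also overlapped, with mean log2 differences of 0.27 and 0.28 and exact two-sided permutation p of 0.7 and 0.5. The adjusted p was 0.7 for the 4 ratios that overlapped.

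**Figure D5:**
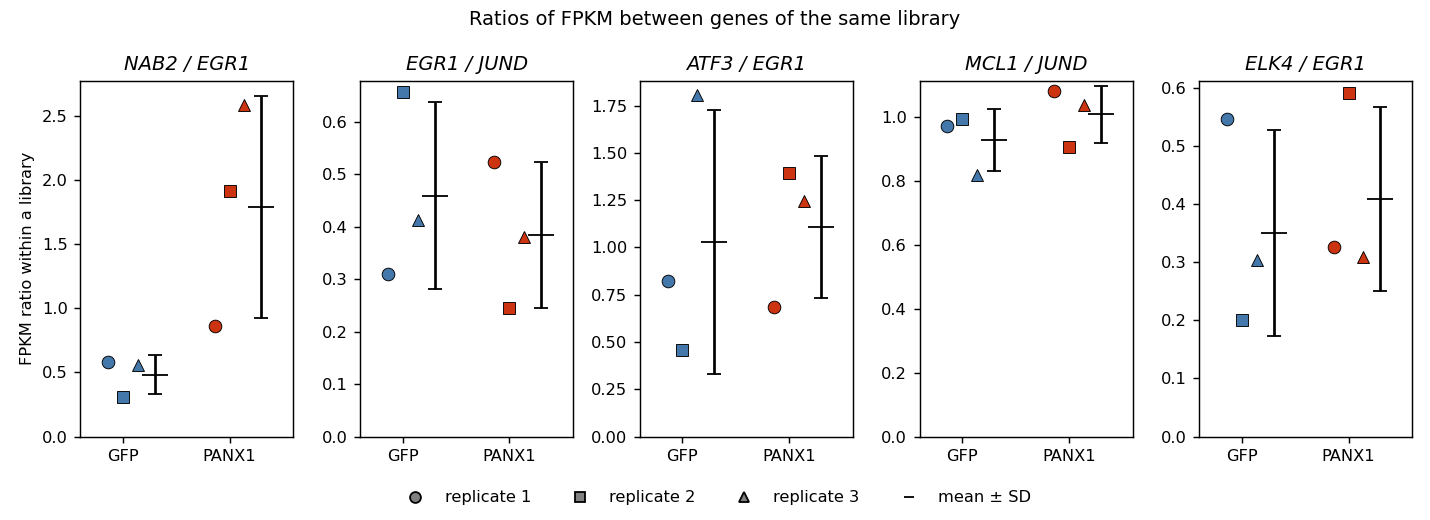
Ratios of FPKM between genes of the same library (vertical axes, linear from 0) in the 3 GFP and 3 PANX1 libraries, with the mean and SD of each group. NAB2/EGR1 lies between 0.311 and 0.583 in GFP and between 0.867 and 2.59 in PANX1 cells, and the other 4 ratios overlap between the groups.

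Genes of the cascade that leads to EGR1 had ratios close to those of the table as a whole. Of 56 RAS, RAF and MAP kinase cascade genes looked up, 9 were in the table, and all 9 had a higher mean in PANX1 cells without overlap, as did 82.0% of the table. Their median log2 ratio was 1.31, near the table's 1.23, and 0.72 without PANX1 replicate 3, against 0.70 for the table. Limma called 5 of the 9 higher, where 33.5% of the table was, and 0 of the 9 with median-of-ratios scaling, under which MAP2K3, MAPK3 and MAP3K6 turned lower, or with the GC correction, under which MAP3K6 and MAP3K10 did. Among those called, HRAS, a RAS GTPase, went from 15.2 ± 2.33 to 44.3 ± 32.0 FPKM (SD, n = 3), and MAP2K2, the kinase MEK2 that activates ERK, from 27.3 ± 3.24 to 61.9 ± 29.2 (SD, n = 3). RRAS, MAP3K11 and MAPK12, which encodes a p38 kinase, were called as well, with log2 ratios of 1.61, 1.69 and 1.70. MAPK3, which encodes ERK1, had 14.8, 16.1 and 19.1 FPKM in GFP replicates 1, 2 and 3 and 26.9, 25.0 and 37.5 in PANX1 replicates 1, 2 and 3, with an adjusted p of 0.0918 in limma. MAP2K3, MAP3K6 and MAP3K10 were not called either, with log2 ratios of 0.85, 1.15 and 1.31. All 9 were highest, among the PANX1 libraries, in replicate 3, as were 1081 of the 1108 higher genes of the table. Without that library the log2 ratios of HRAS, RRAS, MAP2K2, MAP3K11 and MAPK12 were 0.78, 0.96, 0.72, 1.00 and 0.90. Without PANX1 replicate 1 limma called 3 of the 9, without PANX1 replicate 2 it called 6 and without PANX1 replicate 3 it called 9, against 23.6%, 56.2% and 78.1% of the table. Without GFP replicate 1, 2 or 3 it called 0 of the 9, against 0.628%, 1.10% and 4.01% of the table. None of the 21 looked-up feedback inhibitors of this cascade was analysed here. HSPB1 was the only 1 of 11 heat shock genes in the table and was called higher, with a log2 ratio of 2.73 that went to 1.26 without PANX1 replicate 3.

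None of the 5 genes with the profile most like that of EGR1 was on the lists of immediate early genes. Likeness was measured as the root mean square difference between profiles of log2(FPKM + 1) over the 6 libraries, each centred on its own mean. The 5 nearest genes were GAS1 at 0.301, TMX4 at 0.346, ANKRD36BP1 at 0.383, EID1 at 0.388 and GMFB at 0.396, where the median over the table was 1.17. GAS1, a membrane protein of growth-arrested cells, had 91.6, 150 and 123 FPKM in GFP replicates 1, 2 and 3 and 87.5, 71.7 and 55.0 in PANX1 replicates 1, 2 and 3. Like EGR1 it was highest in GFP replicate 2, and among PANX1 libraries highest in replicate 1, but its groups did not overlap. None of the 5 was called in limma, with adjusted p from 0.0565 to 0.0957. The loci of EID1 and ANKRD36BP1 lie across SHC4 and SFT2D2, so their values are uncertain. JUND, at 0.452, was the 23rd nearest gene to EGR1.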

How the data were processed

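RNA-seq of 6 Rh30 libraries, 3 GFP and 3 PANX1, was examined from 1 deposited table of FPKM. Per the study's methods and the submitters' processing notes, the authors aligned reads to hg19 with TopHat2 2.0.13 and Bowtie2 2.2.3 and estimated FPKM with Cufflinks 2.2.1. The deposited FPKM carry no counts, and no counts or depths were recovered from them, so no counting interval is given and the number of libraries limits the precision. The authors' own test selected the genes of the table. Columns were matched to samples by the tags in the sample titles, and 1 was added to each start of the deposited loci.

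Limma 3.58.1 in R 4.3.3 (lmFit, eBayes with a trend) was fitted on log2(FPKM + 1) over all genes and 6 libraries. No block was used, p-values were adjusted by Benjamini-Hochberg with a threshold of 0.05, and the script was tested on simulated data. Log2 ratios are of mean FPKM without a pseudocount. GC content came from GENCODE v44lift37 for 1154 genes. Promoter windows came from RefSeq, and not every named gene had one. The members, the gene lists and the tests were chosen with earlier results of these data known. All listed genes present are named, as are the 5 genes nearest to EGR1. MAP3K10 is named outside the rule, which for a list with more than 8 present takes the 4 highest and 4 lowest log2 ratios. DDIT4, INHBE and BEX2 were chosen after their values were seen. Exact permutation tests ran in scipy 1.17.1, tables were handled in pandas 2.3.3 under Python 3.11.15, and plots were drawn with matplotlib 3.10.9.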

Additional observations from a re-analysis of the deposited data

How the results depend on the processing

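EGR1 and JUND were lower in PANX1 cells in all 15 alternative fits, with limma log2 changes from -2.04 to -0.69 for EGR1 and from -2.04 to -0.58 for JUND, and adjusted p from 0.00191 to 0.251 and from 0.0043 to 0.24. EGR1 was called in 6 of the 15 and JUND in 4. EGR1 was not called with a minimum mean FPKM of 1 (change -1.02, adjusted p = 0.0512), without a trend in eBayes (-1.02, 0.0684), with median-of-ratios scaling (-2.04, 0.12), with the GC correction (-1.39, 0.0997) or with the GC correction and the replicate block (-1.39, 0.0682). JUND was called with the replicate block by title number (-0.78, 0.0377), with the block by culture number (-0.61, 0.0043) and with the GC correction and the title block (-2.04, 0.0279). In the block by culture number GFP replicate 1 and PANX1 replicate 3 share their number with no other library. They therefore add nothing to the change in that fit, which gave the lowest adjusted p for both genes. Leaving out each library in turn gave limma changes from -1.36 to -0.69 for EGR1 and from -0.88 to -0.58 for JUND. Median-of-ratios scaling moved the log2 ratios of means to -1.94 and -1.65. With medians in place of means they were -1.29 and -0.58.

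Genes of the table called higher and lower numbered 426 and 9 in the fit as reported. They numbered 500 and 22 with a pseudocount of 0.1, 516 and 20 with one of 0.01, and 321 and 4 with the minimum mean FPKM. Without a trend both were 0 (770 and 54 at an unadjusted p below 0.05), as with median-of-ratios scaling (145 and 171). The GC correction gave 9 and 0 (296 and 66 unadjusted) over 1154 genes. With each library left out in turn they ran from 8 to 994 and from 0 to 146. The listed genes other than EGR1 and JUND, 17 in all, were called higher in 7 cases and lower in 0 (10 and 0 unadjusted). Those counts were both 0 without a trend, with median-of-ratios scaling and with the GC correction, and ran from 1 to 14 and from 0 to 2 with each library left out. With median-of-ratios scaling the change turned to -0.30 in NAB2, -0.25 in MAP2K3, -0.24 in MAPK3 and -0.013 in MAP3K6, and with the GC correction, with or without the block, to -0.0421 in MAP3K6 and -0.58 in MAP3K10. The causes were not tested.

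For the pairing by title number, deviations of same-numbered libraries around their groups correlated across genes at 0.416, -0.362 and 0.143 for numbers 1, 2 and 3, so the numbers were not taken as pairs. Culture numbers in the sample descriptions gave -0.006 and 0.053 for the 2 numbers shared. With the replicate block by title number 581 genes were called higher and 33 lower. With the block by culture number, which rests only on the libraries that share a number, there were 1005 and 140. Among the listed genes there were 13 and 2, the 2 lower ones being ATF3 and MCL1. With the GC correction and the title block there were 67 and 6, and 1 and 0 of the listed genes.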
